A study of Mus musculus with 16 samples.

Results

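Aminoacyl-tRNA synthetases were followed as mRNA through 6 sorted gates of mouse B cells that run from the germinal centre light zone to memory. The enzymes were taken by gene symbol, 20 that serve the cytosol and 16 that serve mitochondria (symbols ending in 2), and all 36 were found among the 23234 named genes of the deposited table. All 36 had at least 1 FPKM (fragments scaled to transcript length and to the mapped fragments of the library) in at least 2 libraries, so none was lost to the filter on low values. Bcl6-YFP(KI/+) B1-8hi(KI/+) B cells of C57BL/6 background, which carry a reporter for the germinal centre factor Bcl6 and a receptor chain that binds the hapten NP, were given to CD45.1+ wild-type mice. These recipients were immunised with NP-CGG in alum and killed on day 10, and the spleens of 9 of them were pooled. All 6 gates held CD45.2+ donor cells that bound NP and were IgG1+ and CD138-. The LZ gate (n = 3 libraries) held CD38- cells with high CD86 and low CXCR4. Fraction 2 (n = 2), named prone to recycling, and Fraction 3 (n = 3), named under selection, were light zone cells high for Bcl6-YFP, the first with high and the second with low CD69. The remaining gates were CD38+ and GL7-. Of these, Fraction 5 (n = 3), named pro-memory, was high for both Bcl6-YFP and Efnb1, Fraction 6 (n = 2), named pre-memory, combined low Bcl6-YFP with high Efnb1, and Fraction 7 (n = 3), named mature memory, was low for both. Nothing in the labels tells whether each library had its own pool of mice; the p-values then reflect spread among libraries that may be technical.

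Each aminoacyl-tRNA synthetase joins 1 kind of amino acid to its tRNA at the cost of ATP, which makes the substrate that ribosomes use. Cytosol and mitochondria translate separately, and most amino acids therefore have a pair of nuclear genes, while Gars (glycine) and Kars (lysine) each supply both compartments from a single gene. Part of the cytosolic enzymes sit together in a multisynthetase complex held by the scaffold proteins Aimp1, Aimp2 and Eef1e1. In lymphocytes, growth after activation goes with more protein synthesis, and many cytosolic synthetase genes are known targets of Atf4, the transcription factor of the amino acid response.

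The 16 libraries summed to between 416741 and 492578 FPKM and held 10133 to 10552 genes at 1 FPKM or more; FPKM keep no read counts, so the depth is unknown. No 2 libraries were identical. The B cell markers Cd79a, Cd79b, Ms4a1 and Pax5 summed to between 1950 and 3542 FPKM, while T cell markers summed to at most 1.77 FPKM and NK cell markers to at most 0.201 FPKM. Erythroid markers summed to 33.1 to 148 FPKM and the 2 neutrophil markers found to 0 to 28.6 FPKM, with the highest Fraction 2 library at 65.5 and 1.19 FPKM. The summed germinal centre markers were lowest in Fraction 7, at 69.3 to 87.9 FPKM, and the summed memory markers highest there, at 234 to 261 FPKM. At a limma adjusted p under 0.05, 4 of the 5 memory markers were higher and 1 lower in Fraction 7 against LZ. Against Fraction 6, 2 were higher and 1 lower. Plasma cell markers summed to 374, 753 and 672 FPKM in libraries 1, 2 and 3 of Fraction 7, and Sdc1, which encodes the excluded CD138, stood at 0.502, 4.44 and 4.51 FPKM in them. Monocyte and macrophage markers summed to 21.2 to 30.7 FPKM in Fraction 7 and to 6.82 to 15.97 FPKM in the other groups, and the part of these other cell types in any result below was not tested. FPKM are relative to all RNA of a library, so in these bulk samples less RNA per cell and fewer cells of a type cannot be told apart.

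The summed mRNA of the 20 cytosolic enzymes was highest in Fraction 2 and fell into a high and a low set of groups. It averaged 846 ± 35.0 FPKM in LZ, 999.8 ± 19.0 in Fraction 2, 803 ± 12.0 in Fraction 3, 568 ± 36.3 in Fraction 5, 532 ± 15.4 in Fraction 6 and 546 ± 34.6 in Fraction 7 (SD). Every library of Fractions 5, 6 and 7 lay below every library of LZ and Fractions 2 and 3. The mitochondrial enzymes are summed here without Lars2, whose values are uncertain and are described on their own. The other 15 summed to 130 ± 2.00 FPKM in LZ, 153 ± 3.60 in Fraction 2, 123 ± 0.667 in Fraction 3, 106 ± 6.05 in Fraction 5, 107 ± 4.00 in Fraction 6 and 119.6 ± 0.798 in Fraction 7. The mitochondrial sum was thus also highest in Fraction 2 but differed less between the other groups. The ratio of the cytosolic to the mitochondrial sum was 6.50 in LZ, 6.54 in Fraction 2, 6.55 in Fraction 3, 5.38 in Fraction 5, 4.96 in Fraction 6 and 4.57 in Fraction 7. The libraries of LZ and Fractions 2 and 3 spanned 6.15 to 6.70 and those of Fractions 5, 6 and 7 spanned 4.40 to 5.63, with no overlap. With Lars2 in the sum these 2 sets of libraries did overlap, with LZ library 3 at 1.08, Fraction 6 library 2 at 1.12 and Fraction 7 library 1 at 1.21. Leaving out Lars2 was chosen after seeing the data. These sums describe chosen genes and carry no test.

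**Figure D1:**
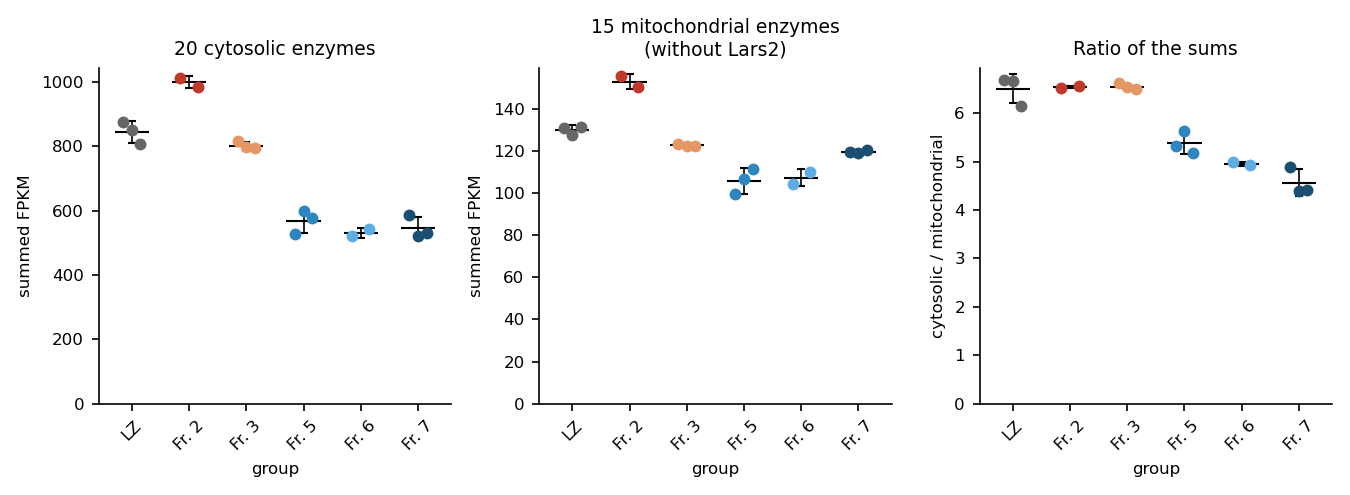
Summed FPKM of the 20 cytosolic enzymes (left), of the 15 mitochondrial enzymes without Lars2 (middle) and the ratio of both sums (right) in each library (points) by group, with the group mean (long bar) and SD (whiskers). The cytosolic sum stands near 1000 in Fraction 2 and between 521 and 600 in the libraries of Fractions 5, 6 and 7, and the ratio steps down at Fraction 5.

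In a test for any difference among the 6 groups, all 20 cytosolic enzymes and 12 of the 16 mitochondrial ones differed (limma's F test), as did 69.7% of the 11266 genes tested. The 4 that did not pass were Cars2, Hars2, Nars2 and Vars2, which charge cysteine, histidine, asparagine and valine tRNAs in mitochondria. Their group means differed by at most 1.41-fold, the widest being Nars2. Fraction 2 had the highest mean for 19 of the 20 cytosolic enzymes, the exception being Wars, and for 10 of the 16 mitochondrial ones. Mars2, Ears2, Tars2 and Wars2 were highest in Fraction 7. The lowest mean of a cytosolic enzyme fell in Fraction 5 for 5 genes, in Fraction 6 for 6 and in Fraction 7 for 9. By mean FPKM over the 16 libraries, a level per transcript length, Vars (valine) led the cytosolic enzymes at 108 and Cars (cysteine) was lowest at 11.4. Among mitochondrial enzymes Lars2 stood at 493 and the next, Iars2 (isoleucine), at 15.6, and Nars2 was lowest at 1.89.

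In Fraction 2 against Fraction 3, which asks how light zone cells with high CD69 differ from those with low CD69, cytosolic synthetases rose. Of the 20, 11 were called higher and 0 lower, with a median log2 change of 0.35, beside 15.6% of all tested genes called in this comparison, 9.17% higher and 6.45% lower, and a median of 0.04 over all genes. Log2 changes here and below are of FPKM + 1, a scale that makes changes of low genes look smaller, and a gene is called at an adjusted p under 0.05. All 20 had a positive change. Eprs, which charges both glutamate and proline tRNAs, had 47.2 and 47.9 FPKM in Fraction 2, against 31.2, 34.4 and 30.4 FPKM in Fraction 3. Mars (methionine, the amino acid that starts every protein) had 39.7 and 42.5 FPKM in Fraction 2, against 30.9, 26.4 and 27.2 FPKM in Fraction 3. Tars (threonine) had 39.1 and 42.1 FPKM in Fraction 2, against 27.8, 27.1 and 28.4 FPKM in Fraction 3. Groups did not overlap for any of these genes, which was also true of 3237 higher and 2184 lower genes of the 11266 tested. The log2 changes were 0.56 ± 0.12 (SE, limma adjusted p = 0.00804) for Eprs, 0.53 ± 0.11 (0.00578) for Mars and 0.53 ± 0.11 (0.00665) for Tars. Iars (isoleucine), at 0.49 ± 0.08 (limma adjusted p = 0.00212), was the 1 cytosolic enzyme of the 11 whose call held with any single library left out.

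Of the mitochondrial enzymes, 4 of 16 rose in Fraction 2 against Fraction 3, namely Pars2 (proline), Rars2 (arginine), Aars2 (alanine) and Iars2, and 0 fell, with a median of 0.28. Of all tested genes, 9.17% were called higher and 6.45% lower. Pars2 had 4.97 and 4.25 FPKM in Fraction 2, against 2.37, 2.98 and 2.25 FPKM in Fraction 3. Rars2 had 22.7 and 19.1 FPKM in Fraction 2, against 14.2, 15.6 and 14.3 FPKM in Fraction 3. The lower Fraction 2 library lay above the highest Fraction 3 library for both, as it did for 3237 of the 11266 genes tested. Pars2 changed by 0.67 ± 0.14 (limma adjusted p = 0.0076) and Rars2 by 0.48 ± 0.09 (0.00311). The summed FPKM were 24.5% higher for the cytosolic and 24.7% higher for the 15 mitochondrial enzymes. With only 2 libraries in Fraction 2, the counts depended on each of them: without library 1 they were 3 cytosolic and 1 mitochondrial, without library 2 they were 2 and 2, and without Fraction 3 library 3 they were 6 and 4. Pars2 and Rars2 missed the threshold without Fraction 2 library 1 (adjusted p = 0.078 and 0.0502), Mars and Tars without library 2 (0.0612 and 0.0683), and Eprs without either (0.0533 and 0.0605).

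In Fraction 5, pro-memory cells that keep high Bcl6-YFP, nearly every cytosolic synthetase was lower than in both light zone fractions. Against Fraction 3, 19 of 20 fell and 0 rose, with a median log2 change of -0.59, beside 29.5% of all tested genes called, 9.99% higher and 19.5% lower, and a median of -0.03 over all genes. Against Fraction 2, the same count of 19 of 20 fell and 0 rose, with a median of -0.95, beside 43.7% of all tested genes called, 16.6% higher and 27.1% lower, and a median of -0.04. Both comparisons use the same Fraction 5 libraries. Qars (glutamine) was the exception in both, at 61.3, 61.9 and 69.3 FPKM in Fraction 5, against 63.9, 62.1 and 72.4 FPKM in Fraction 3 and 65.4 and 67.7 FPKM in Fraction 2. Its log2 change was -0.04 against Fraction 3 (limma adjusted p = 0.698) and -0.05 against Fraction 2 (0.622), with SEs of 0.07 and 0.08.

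The enzymes with the steepest falls against Fraction 2 were Mars, Iars and Yars (tyrosine). Mars had 13.9, 18.5 and 15.7 FPKM in Fraction 5, against 39.7 and 42.5 FPKM in Fraction 2. Iars had 13.8, 14.7 and 14.7 FPKM in Fraction 5, against 36.4 and 34.9 FPKM in Fraction 2. Yars had 9.38, 12.5 and 10.7 FPKM in Fraction 5, against 26.4 and 27.4 FPKM in Fraction 2. Each Fraction 5 library held fewer FPKM of these genes than either Fraction 2 library, as it did for 4036 of the 11266 genes tested. The log2 changes were -1.31 ± 0.11 for Mars (limma adjusted p = 9.49e-07), -1.25 ± 0.08 for Iars (2.76e-07) and -1.24 ± 0.11 for Yars (1.38e-06). Against Fraction 3 the steepest falls were those of Cars, Yars and Gars. Cars had 7.21, 7.88 and 8.26 FPKM in Fraction 5, against 15.3, 15.4 and 14.4 FPKM in Fraction 3. Gars had 27.4, 32.4 and 31.7 FPKM in Fraction 5, against 56.6, 53.0 and 52.0 FPKM in Fraction 3. Neither gene overlapped between the groups, and neither did 1961 higher and 3009 lower genes of the 11266 tested. The changes were -0.87 ± 0.09 for Cars (limma adjusted p = 1.82e-05), -0.84 ± 0.10 for Yars (4.02e-05) and -0.80 ± 0.10 for Gars (5.93e-05). Of the 19 falls, 16 against Fraction 3 and 18 against Fraction 2 held with any single library left out. The calls that did not hold were those of Vars in both comparisons and of Wars (tryptophan) and Sars (serine) against Fraction 3. Vars changed by only -0.21 and -0.22 against Fractions 3 and 2, Wars by -0.35 and Sars by -0.29 against Fraction 3. Leaving out a library gave Vars adjusted p between 0.0517 and 0.145 in every case but that of Fraction 3 library 3. For Wars the adjusted p was 0.0649 to 0.12 without any 1 of the libraries other than Fraction 3 library 2. For Sars it was 0.0698 without Fraction 3 library 1 and 0.0638 without Fraction 5 library 1.

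Of the 16 mitochondrial enzymes, 3 fell in Fraction 5 against Fraction 3 and 9 fell against Fraction 2, beside 19.5% and 27.1% of all tested genes lower, so the share against Fraction 3 was near that of all genes. No test set one compartment against the other. Against Fraction 3, Rars2, Yars2 and Iars2 fell and Lars2 was called higher, with a median of -0.11 over the 16. Against Fraction 2, Lars2 was again the 1 enzyme called higher, with a median of -0.38 over the 16. Rars2 had 9.83, 9.82 and 10.4 FPKM in Fraction 5, against 14.2, 15.6 and 14.3 FPKM in Fraction 3 and 22.7 and 19.1 FPKM in Fraction 2. Yars2 had 5.49, 5.75 and 8.48 FPKM in Fraction 5, against 9.91, 10.7 and 8.29 FPKM in Fraction 3 and 13.2 and 11.5 FPKM in Fraction 2. Rars2 did not overlap in either comparison, while Yars2 in Fraction 5 library 3 lay above the lowest library of Fraction 3. Against Fraction 2, Rars2 changed by -0.99 ± 0.09 (limma adjusted p = 1.33e-06) and Yars2 by -0.84 ± 0.15 (0.000568). Against Fraction 3, Rars2 changed by -0.51 ± 0.08 (limma adjusted p = 0.000268), a call that held with any library left out. The Yars2 change of -0.50 ± 0.14 (0.0135) missed the threshold without Fraction 3 library 2 (0.0571) or Fraction 5 library 1 (0.0681) or 2 (0.0524). The count against Fraction 3 was 2 without Fraction 3 library 3 and 1 without Fraction 5 library 1. The count against Fraction 2 was 5 without Fraction 2 library 1 and 6 without Fraction 5 library 3. The summed FPKM of the cytosolic enzymes fell by 29.2% against Fraction 3 and by 43.1% against Fraction 2, and those of the 15 mitochondrial enzymes by 13.7% and 30.8%.

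**Figure D2:**
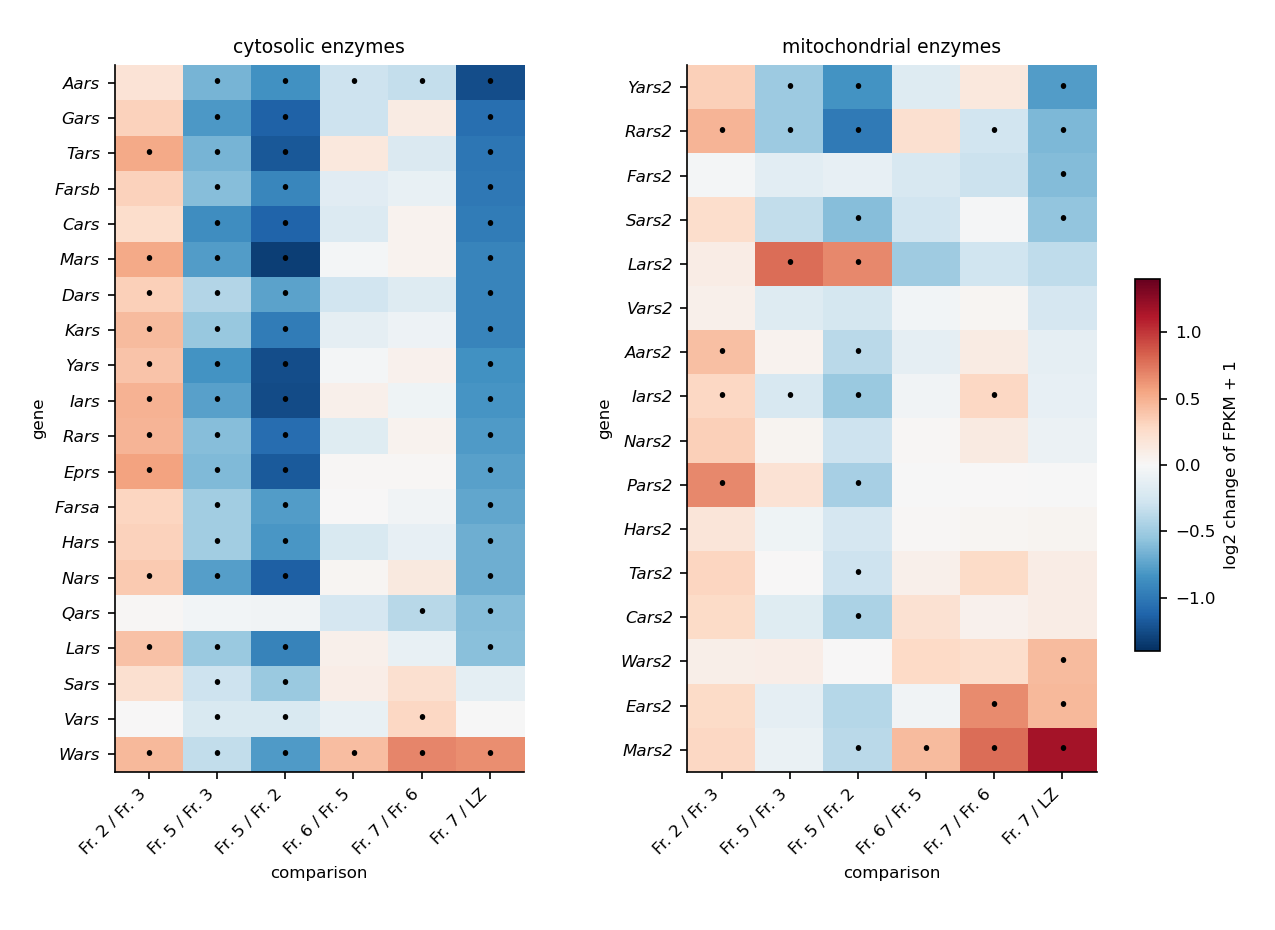
Log2 change of FPKM + 1 (colour, red higher and blue lower in the first-named group) of each cytosolic (left) and mitochondrial (right) enzyme in 6 comparisons, with a dot where the adjusted p is under 0.05. The blue columns of Fraction 5 and of Fraction 7 against LZ take in most cytosolic enzymes, while Wars, Mars2, Ears2 and Wars2 are red in Fraction 7 against LZ.

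Promoter windows were read for the element through which C/EBP and Atf4 dimers are known to bind, TGATGNAA on either strand. RefSeq windows of GRCm38.p6, from 250 bases before to 50 after the annotated start, matched 27 of the 36 symbols, 13 cytosolic and 14 mitochondrial (Mars under its current symbol Mars1). The element was in 5 of the 13 cytosolic windows (38.5%), in 0 of the 14 mitochondrial windows and in 4.51% of all 27025 genes with a window. The 5 genes are shown because they hold the element, 1 stretch for each, with the element in capitals within 30 bases of the gene's own strand, 5′ to 3′:
Aars, bases 10 to 17 after the start, chr8:111033840-111033869 (+): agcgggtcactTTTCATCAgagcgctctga
Gars, 30 to 23 bases before the start, chr6:55037960-55037989 (+): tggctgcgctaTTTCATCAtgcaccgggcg
Iars, bases 8 to 15 after the start, chr13:49682126-49682155 (+): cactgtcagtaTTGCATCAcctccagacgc
Tars, 15 to 8 bases before the start, chr15:11399655-11399684 (-): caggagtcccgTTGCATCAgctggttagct
Yars, bases 4 to 11 after the start, chr4:129189895-129189924 (+): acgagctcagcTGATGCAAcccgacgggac
Of the elements shown, all but that of Yars read as the reverse complement of the searched letters, and 3 of the 5 lie after the annotated start. The E-box CACGTG was in 4 of the 13 cytosolic windows (30.8%: Aars, Farsb, Iars and Tars), in 1 of the 14 mitochondrial windows (7.14%: Ears2) and in 8.09% of all. The ETS letters CCGGAAGT were in 2 cytosolic (Farsa and Mars) and 1 mitochondrial window (Rars2), against 4.31% of all, and the NRF1 motif in 0 of either set, against 1.07% of all. None of the matches overlapped another. The 5 cytosolic genes with the C/EBP-ATF element had a median log2 change of -0.76 in Fraction 5 against Fraction 3, -1.19 in Fraction 5 against Fraction 2 and -1.01 in Fraction 7 against LZ. The 8 cytosolic genes with a window and no such letters had medians of -0.51, -0.85 and -0.84 in these comparisons. In Fraction 2 against Fraction 3 the medians were 0.40 and 0.33. These ranges overlapped in all 4 comparisons, and a match of letters is a description, not a site.

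In Fraction 6 against Fraction 5, gates that differ in Bcl6-YFP and share high Efnb1, few synthetases changed. Of the cytosolic enzymes Wars rose and Aars (alanine) fell, with a median log2 change of -0.06 over the 20, and of the mitochondrial ones Mars2 rose, with a median of -0.02 over the 16. Beside this, 17.5% of all tested genes were called, 7.07% higher and 10.4% lower, with a median of -0.00. Without the adjustment, 0.05 was passed by 5 cytosolic and 2 mitochondrial enzymes. Wars had 23.0 and 20.3 FPKM in Fraction 6, against 15.1, 16.2 and 16.1 FPKM in Fraction 5. Aars had 18.4 and 19.5 FPKM in Fraction 6, against 22.5, 24.4 and 23.4 FPKM in Fraction 5. Mars2 had 4.84 and 4.93 FPKM in Fraction 6, against 3.70, 3.69 and 2.68 FPKM in Fraction 5. The groups did not overlap for any of the 3 genes, which was also true of 2595 higher and 2806 lower genes of the 11266 tested. The changes were 0.43 ± 0.13 for Wars (limma adjusted p = 0.0366), -0.30 ± 0.07 for Aars (0.0105) and 0.44 ± 0.14 for Mars2 (0.0481). None of these calls held with every library left out in turn. Wars missed the threshold without any single library of either fraction (adjusted p = 0.0665 to 0.254), Mars2 without any but Fraction 5 library 1 (0.055 to 0.188), and Aars without Fraction 6 library 1 (0.112).

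In Fraction 7 against Fraction 6, gates that share low Bcl6-YFP and differ in Efnb1, a few synthetases were called in each direction. Of the cytosolic enzymes Wars and Vars rose and Qars and Aars fell, with a median log2 change of -0.02. Of the mitochondrial enzymes Mars2, Ears2 (glutamate) and Iars2 rose and Rars2 fell, with a median of 0.09. In all, 21.2% of tested genes were called, 7.37% higher and 13.9% lower, with a median of -0.05. The shares of enzymes called, 4 of 20 cytosolic and 4 of 16 mitochondrial, were near that of all genes. Plasma cell markers moved with this comparison: 7 of 8 were called higher, with a median of 1.35, and their sum was 374 to 753 FPKM in Fraction 7, against 269 and 280 FPKM in Fraction 6. Library 1 of Fraction 7, the lowest of its group, also lay above both Fraction 6 libraries, and the part of these transcripts in the result was not tested. Wars had 41.9, 33.9 and 31.1 FPKM in Fraction 7, against 23.0 and 20.3 FPKM in Fraction 6, a change of 0.68 ± 0.13 (limma adjusted p = 0.00205). Qars had 41.9, 40.9 and 40.9 FPKM in Fraction 7, against 54.7 and 53.8 FPKM in Fraction 6, a change of -0.39 ± 0.08 (0.00313). The Qars values lay close together within each group and far apart between them. Aars had 14.3, 15.97 and 14.2 FPKM in Fraction 7, against 18.4 and 19.5 FPKM in Fraction 6, a change of -0.33 ± 0.07 (0.00441). Vars had 126, 104 and 109.6 FPKM in Fraction 7, against 94.3 and 89.5 FPKM in Fraction 6, a change of 0.29 ± 0.08 (0.0134). No library of Fraction 7 overlapped Fraction 6 for these 4 genes. The same held for 1985 higher and 3237 lower genes of the 11266 tested.

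Mars2 had 9.46, 8.60 and 9.34 FPKM in Fraction 7, against 4.84 and 4.93 FPKM in Fraction 6, a change of 0.78 ± 0.14 (limma adjusted p = 0.00141). Ears2, which in mitochondria charges glutamate onto the tRNAs of both glutamate and glutamine, had 6.26, 6.64 and 6.56 FPKM in Fraction 7, against 5.08 and 2.68 FPKM in Fraction 6 (0.66 ± 0.16, adjusted p = 0.00801). Rars2 had 10.4, 9.85 and 9.04 FPKM in Fraction 7, against 12.0 and 11.8 FPKM in Fraction 6 (-0.26 ± 0.09, adjusted p = 0.0422). Fraction 6 spread widely in Ears2 and hardly at all in Mars2. The calls of Wars, Qars and Mars2 held with any single library left out. Without Fraction 6 library 2 the calls of Vars (adjusted p = 0.124), Aars (0.0613) and Ears2 (0.136) were lost and 2 cytosolic and 2 mitochondrial enzymes were called, as were 2 mitochondrial ones without Fraction 6 library 1, where Iars2 (0.115) was lost. Rars2 was lost without either Fraction 6 library (0.183 and 0.148) and without Fraction 7 library 2 (0.0761) or 3 (0.128). Without Fraction 7 libraries 2 and 3, which held more Sdc1, Fraction 7 keeps 1 library, and 4 cytosolic and 1 mitochondrial enzyme were called. Wars and Mars2 stayed called, and Sars was called higher, at 0.38 (limma adjusted p = 0.0269). Qars (-0.36, limma adjusted p = 0.0517), Ears2 (0.62, 0.101) and Iars2 (0.30, 0.064) missed the threshold with changes close to the -0.39, 0.66 and 0.29 of all libraries. Rars2 was at -0.18 (0.348), against -0.26 with all libraries.

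In Fraction 7, mature memory, against LZ, the cytosolic enzymes were lower with few exceptions and the mitochondrial ones moved both ways. Of the cytosolic enzymes 17 of 20 fell and 1, Wars, rose, with a median log2 change of -0.81, beside 62.1% of all tested genes called, 24.1% higher and 38% lower, and a median of -0.10 over all genes. Of the mitochondrial enzymes 4 of 16 fell and 3 rose, with a median of -0.09. The share called, 7 of 16, was below the 62.1% of all tested genes. Other scalings of the libraries moved the median of all genes by 0.12 in this comparison. Measured from the median of all genes, the cytosolic median was -0.71 as deposited and -0.55 and -0.69 under quantile and median-ratio scaling, and the mitochondrial median was 0.01, -0.09 and 0.00. Aars, which proofreads against serine and glycine, had 14.3, 15.97 and 14.2 FPKM in Fraction 7, against 37.4, 37.3 and 34.5 FPKM in LZ. Gars had 29.7, 23.5 and 27.6 FPKM in Fraction 7, against 55.9, 58.9 and 55.1 FPKM in LZ. Tars had 17.3, 16.6 and 16.3 FPKM in Fraction 7, against 36.2, 36.2 and 32.0 FPKM in LZ. All Fraction 7 libraries lay far below all LZ libraries for these 3. Of the 11266 genes tested, 4380 lay below in all Fraction 7 libraries. The changes were -1.24 ± 0.06 for Aars (limma adjusted p = 1.45e-09), -1.05 ± 0.10 for Gars (5.01e-07) and -1.01 ± 0.10 for Tars (7.88e-07). Sars and Vars were the 2 cytosolic enzymes not called, at -0.14 ± 0.08 (limma adjusted p = 0.138) and -0.00 ± 0.07 (0.973). Vars turned positive under both scalings, at 0.38 (limma adjusted p = 5.9e-05) under quantile and 0.14 (0.0412) under median-ratio scaling. Sars was called lower, at -0.22 (0.0187), without Fraction 7 library 1. The other 18 cytosolic calls held with any single library left out.

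In Fraction 7 against LZ, Wars was the only cytosolic enzyme called higher on the values as deposited. The enzyme charges tryptophan and its gene is known to be induced by interferon gamma. It had 41.9, 33.9 and 31.1 FPKM in Fraction 7, against 25.8, 19.1 and 22.2 FPKM in LZ, a change of 0.65 ± 0.12 (limma adjusted p = 0.000281). The 3 Fraction 7 libraries were its 3 highest of all 16. The part of plasma cell transcripts or of interferon gamma in this rise was not tested. Qars changed by -0.59 ± 0.07 (limma adjusted p = 6.01e-06) in Fraction 7 against LZ, but not detectably in Fraction 5 against Fraction 2 or 3. Its group means were 62.8 ± 3.96 FPKM in LZ, 66.5 ± 1.64 in Fraction 2, 66.1 ± 5.51 in Fraction 3, 64.2 ± 4.43 in Fraction 5, 54.3 ± 0.634 in Fraction 6 and 41.2 ± 0.591 in Fraction 7. The first 4 of these do not differ beyond their spread.

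**Figure D3:**
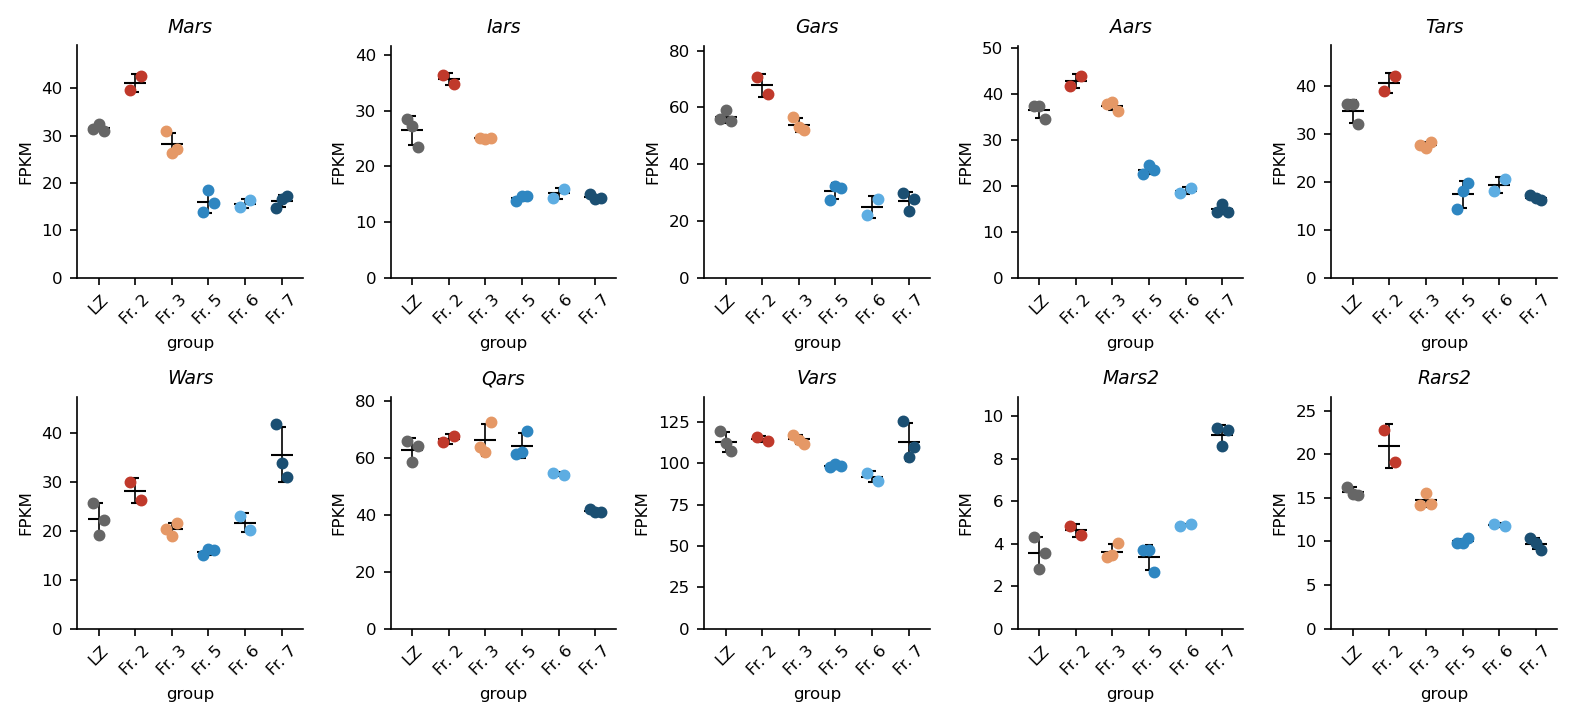
FPKM of 10 enzymes in each library (points) by group, with group mean (long bar) and SD (whiskers). Mars, Iars, Gars and Tars drop at Fraction 5 and stay low, Aars goes on falling by group mean, Qars is lower from Fraction 6 on, and Wars and Mars2 are highest in Fraction 7.

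Among mitochondrial enzymes Mars2, which charges the single methionine tRNA of mitochondria, had the largest rise. It had 9.46, 8.60 and 9.34 FPKM in Fraction 7, against 4.34, 2.80 and 3.55 FPKM in LZ, a change of 1.16 ± 0.13 (limma adjusted p = 2.68e-06). Ears2 had 6.26, 6.64 and 6.56 FPKM in Fraction 7, against 4.05, 4.68 and 4.65 FPKM in LZ (0.46 ± 0.14, adjusted p = 0.0114). Wars2, the tryptophan enzyme of mitochondria, had 3.06, 3.40 and 2.48 FPKM in Fraction 7, against 2.16, 1.92 and 1.71 FPKM in LZ (0.44 ± 0.15, adjusted p = 0.0221). None of the 3 overlapped between the groups, and 2876 of the 11266 genes tested likewise lay higher in all Fraction 7 libraries. The enzymes that fell were Yars2 (-0.79), Rars2 (-0.63), Fars2 (phenylalanine, -0.60) and Sars2 (-0.55). Yars2 had 6.55, 6.16 and 6.17 FPKM in Fraction 7, against 12.3, 11.9 and 10.7 FPKM in LZ (SE 0.14, limma adjusted p = 0.000195). The calls held with any single library left out, save that of Wars2, which was lost without LZ library 3 (adjusted p = 0.0745) or Fraction 7 library 1 (0.0545) or 2 (0.0863). Without both Fraction 7 libraries that held more Sdc1, 18 cytosolic and 5 mitochondrial enzymes were called. Ears2 and Wars2 were not, with changes of 0.41 (limma adjusted p = 0.13) and 0.47 (0.0934) that lay close to those of all libraries. The summed FPKM of the cytosolic enzymes fell by 35.4% and those of the 15 mitochondrial enzymes by 8.00% in Fraction 7 against LZ.

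Lars2, the leucine enzyme of mitochondria, stood apart from every other mitochondrial synthetase. Its level lay between 305 and 865 FPKM and made up 71.4% to 89.7% of the mitochondrial sum. It had 865, 583 and 627 FPKM in Fraction 5, against 502, 405 and 305 FPKM in Fraction 3 and 468 and 387 FPKM in Fraction 2. The Fraction 5 libraries lay above all others of these groups. Of the 11266 genes tested, 1961 lay higher without overlap against Fraction 3 and 3002 against Fraction 2. The changes were 0.78 ± 0.22 (limma adjusted p = 0.0178) against Fraction 3 and 0.68 ± 0.25 (0.041) against Fraction 2. The first call was lost without Fraction 3 library 3 (adjusted p = 0.0789) or Fraction 5 library 1 (0.0859), and the second without any of 4 libraries (Fraction 2 library 1 or 2, Fraction 5 library 1 or 3; 0.0541 to 0.22). The Rn45s row, the ribosomal RNA precursor, ran from 1759 to 4141 FPKM. Both rows had their highest value in Fraction 5 library 1 and their lowest in Fraction 3 library 3. Within Fraction 2, Fraction 3, Fraction 5 and Fraction 6, both rows ranked the libraries in the same order. Within LZ and Fraction 7 they did not. Over all groups the libraries did not keep to 1 order: LZ library 3 had 617 FPKM of Lars2 and 2449 of Rn45s, and Fraction 7 library 1 had 367 and 2804. By group mean, both rows were higher in Fraction 5 than in Fraction 3 or Fraction 2, where Lars2 was called. Rn45s averaged 3416 FPKM in Fraction 5, 2354 in Fraction 3 and 2025 in Fraction 2, and Lars2 averaged 692, 404 and 427 FPKM. Fraction 7, where Lars2 was not called against LZ, had more Rn45s than LZ (2718 against 2412 FPKM) and less Lars2 (401 against 515 FPKM). The part of ribosomal RNA reads in the Lars2 values was not tested, and Lars2 is treated as uncertain. With Lars2 in the sum, the ratio of cytosolic to mitochondrial FPKM was 1.33 in LZ, 1.73 in Fraction 2, 1.56 in Fraction 3, 0.733 in Fraction 5, 0.917 in Fraction 6 and 1.06 in Fraction 7.

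**Figure D4:**
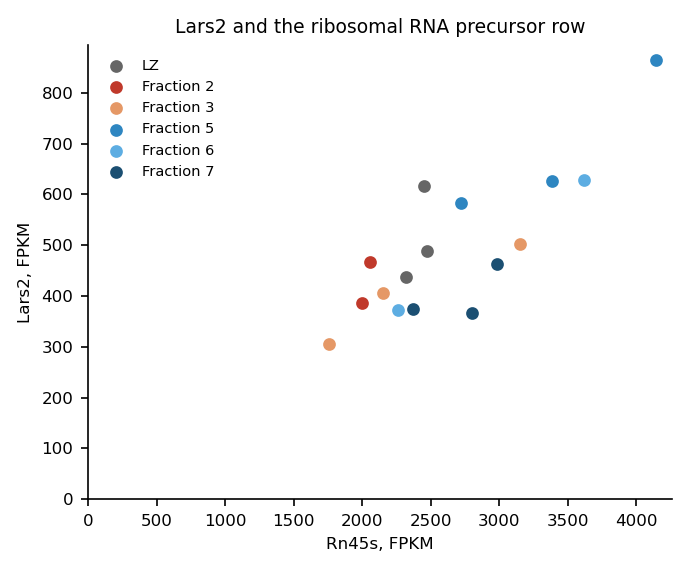
FPKM of Lars2 against FPKM of Rn45s, the ribosomal RNA precursor, in each of the 16 libraries, coloured by group. The highest point is Fraction 5 library 1 (865 and 4141 FPKM) and the lowest is Fraction 3 library 3 (305 and 1759 FPKM). Between them, LZ library 3 lies at 617 and 2449 FPKM and Fraction 7 library 1 at 367 and 2804 FPKM. Within Fraction 2, Fraction 3, Fraction 5 and Fraction 6, both rows rank the libraries in the same order.

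Each mitochondrial enzyme was also set against the cytosolic enzyme for the same amino acid, which gave 17 pairs, with Farsa and Farsb both set against Fars2 and Eprs against both Ears2 and Pars2. The cytosolic partner was higher per transcript length in all 16 libraries in 13 pairs. The pair difference, in log2(FPKM + 1), was lower in Fraction 7 than in LZ in 14 pairs and had its highest group mean in Fraction 2 in 11. The methionine pair spread most over the groups. Mars exceeded Mars2 by 2.85 in LZ, 2.90 in Fraction 2, 2.66 in Fraction 3, 1.97 in Fraction 5, 1.50 in Fraction 6 and 0.76 in Fraction 7. In the single libraries this difference was 0.59, 0.88 and 0.82 in Fraction 7, against 2.61, 3.14 and 2.81 in LZ. The leucine pair came next with a range of 1.61 between group means, from a low in Fraction 5 to a high in Fraction 2, and rests on the uncertain Lars2. Lars itself averaged 13.6 ± 1.33 FPKM in Fraction 5, against 19.95 ± 1.62 FPKM in Fraction 3 and 26.8 ± 0.983 FPKM in Fraction 2. The glutamate, alanine and threonine pairs (Eprs and Ears2, Aars and Aars2, Tars and Tars2) had ranges of 1.36, 1.32 and 1.28. The valine pair had the smallest, 0.26. These are differences of levels and carry no test.

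**Figure D5:**
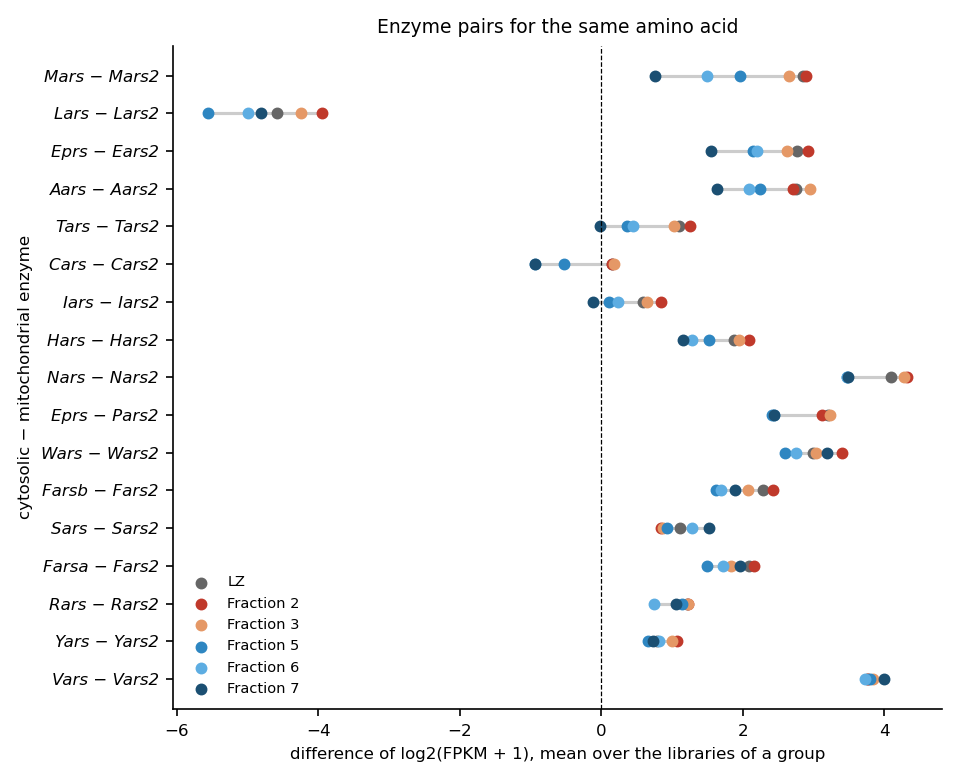
Difference of log2(FPKM + 1) between the cytosolic and the mitochondrial enzyme for the same amino acid, as group means (points, coloured by group) joined by a grey line, with pairs ordered by the range of their group means. The Mars and Mars2 difference spans 0.76 in Fraction 7 to 2.90 in Fraction 2, and only the leucine pair lies below 0 in every group.

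The enzymes of the multisynthetase complex (Dars, Eprs, Iars, Kars, Lars, Mars, Qars and Rars) were counted apart from the 12 other cytosolic enzymes, with no test between both sets. In Fraction 2 against Fraction 3, 7 of the 8 complex enzymes rose, all but Qars, with a median of 0.46, and 4 of the 12 others rose, with a median of 0.32. Beside this, 9.17% of all tested genes were called higher. All changes of both sets were positive, and without the adjustment 0.05 was passed by 7 of the 8 and 11 of the 12. Of these calls only that of Iars held with any single library left out. In Fraction 5 against Fraction 3, 7 of 8 and 12 of 12 fell, with medians of -0.56 and -0.62, beside 19.5% of all tested genes lower. In Fraction 7 against LZ, 8 of 8 fell, and of the 12 others 9 fell and Wars rose, with medians of -0.81 and -0.78. There 38% of all tested genes were lower and 24.1% higher. By fold of the catalytic domain, class I and class II enzymes gave medians of -0.59 and -0.56 in Fraction 5 against Fraction 3, with Eprs, which holds both folds, left out. Of the scaffold genes, Aimp2 and Eef1e1 rose in Fraction 2 against Fraction 3 and fell in Fraction 5 against Fraction 2, by 1.32 and 1.37 on the log2 scale. Aimp2 had 14.9, 18.6 and 11.3 FPKM in Fraction 5, against 43.2 and 33.6 FPKM in Fraction 2. Eef1e1 had 14.3, 15.3 and 15.1 FPKM in Fraction 5, against 42.9 and 37.6 FPKM in Fraction 2. Both genes were lower in every Fraction 5 library. Aimp1 was called in Fraction 7 against LZ alone of the 6 comparisons (-0.46), with 39.4, 35.6 and 34.0 FPKM in Fraction 7, against 50.9, 50.1 and 49.4 FPKM in LZ.

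Genes that work beside the synthetases were counted in the 2 comparisons with the most calls, Fraction 5 against Fraction 2 (27.1% of all tested genes lower and 16.6% higher, median -0.04) and Fraction 7 against LZ (38% lower and 24.1% higher, median -0.10). Of 8 mitochondrial charging partners, 3 fell and 0 rose in the first and 2 fell and 2 rose in the second, with medians of -0.21 and -0.01. The share called, 3 and 4 of 8, was below the 43.7% and 62.1% of all tested genes. Qrsl1 and Gatb encode subunits of the amidotransferase that turns glutamate on its tRNA into glutamine. Qrsl1 had 11.8, 11.4 and 11.7 FPKM in Fraction 7, against 18.03, 19.8 and 18.9 FPKM in LZ, and changed by -0.66. Gatb changed by -0.72 in Fraction 5 against Fraction 2, and Trmu, which thiolates mitochondrial tRNAs, by -0.66 in that comparison. Of 11 genes of tRNA supply and editing, 6 fell and 0 rose in Fraction 5 against Fraction 2, with a median of -0.48. Thg1l, which adds the guanosine at the end of histidine tRNA, had 10.1, 16.5 and 10.9 FPKM in Fraction 5, against 28.5 and 32.8 FPKM in Fraction 2 (-1.25). Aarsd1, a free editing domain for alanine tRNA, changed by -1.11 there. In Fraction 7 against LZ, 3 of the 11 fell and 1 rose, with a median of -0.05, a smaller share called than among all tested genes. The gene that rose was Elac1, a tRNA end nuclease, with 4.97, 3.49 and 5.16 FPKM in Fraction 7, against 1.43, 1.80 and 1.05 FPKM in LZ (1.19).

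Of 7 cytosolic elongation and release factors, 4 fell in both Fraction 5 against Fraction 2 and Fraction 7 against LZ, and 0 rose, with medians of -0.67 and -0.25, beside 27.1% and 38% of all tested genes lower. In Fraction 7 against LZ the share called in either direction, 4 of 7, was near the 62.1% of all tested genes. The release factors Gspt1 and Etf1 changed by -1.42 and -0.99 in Fraction 5 against Fraction 2. Gspt1 had 9.66, 13.3 and 10.2 FPKM in Fraction 5, against 31.7 and 30.5 FPKM in Fraction 2. Of the elongation factors, Eef1d changed by -0.69 ± 0.09 in Fraction 5 against Fraction 2 (limma adjusted p = 4.07e-05). Eef1a1 and Eef2, which bring charged tRNA to the ribosome and move it along, passed the test in none of the 6 comparisons. Of 6 mitochondrial factors, 3 fell in Fraction 5 against Fraction 3, in Fraction 5 against Fraction 2 and in Fraction 7 against LZ, and 0 rose, beside 19.5%, 27.1% and 38% of all tested genes lower. Tufm, which carries charged tRNA to the mitochondrial ribosome, had 37.4, 35.0 and 35.0 FPKM in Fraction 7, against 81.8, 72.2 and 66.2 FPKM in LZ (-1.01). Tsfm, its exchange factor, changed by -1.16 in Fraction 5 against Fraction 2, and Gfm1, the mitochondrial translocase, by -0.96 in Fraction 7 against LZ.

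Libraries of this kit do not keep strand, and 8 of the 36 enzymes overlap another gene that has a row in the table, by the neighbour positions of GRCm38.p6. The overlap is of whole gene spans, introns included. Only reads in a stretch that both transcripts share could be given to the wrong partner, and their number was not measured. Mars overlaps Ddit3, which lay between 10.1 and 15.8 FPKM over the 16 libraries beside a mean of 24.4 FPKM for Mars. Rars2 overlaps Orc3 (6.52 to 10.6 FPKM), Aars overlaps Ddx19b (7.24 to 11.04 FPKM), Iars2 overlaps Rab3gap2 (7.77 to 9.76 FPKM) and the microRNA genes Mir194-1 (0 to 869 FPKM) and Mir215 (0 to 153 FPKM), and Wars overlaps Wdr25 (0.815 to 2.15 FPKM). Farsb overlaps Sgpp2, and Hars and Hars2 overlap each other.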

How the data were processed

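Per the labels' protocols, RNA of sorted cells was isolated with TRIzol and libraries were made with a NEBNext Ultra kit. Per the submitters' processing notes, the authors used TopHat2 2.0.8, Cufflinks 2.1.1 and mm9, and deposited FPKM, so count tests were not used and depth is unknown. Of the table, 1 row without a name was left out. The 11266 genes that reached 1 FPKM in 2 or more libraries were tested on log2(FPKM + 1). A model of 6 group means over the 16 libraries with a variance trend was fitted in limma (version 3.58.1, R version 4.3.3). P-values were adjusted by Benjamini-Hochberg over all genes within each comparison, with a threshold of 0.05. The model was tested on simulated data. Some genes and a sequence stretch are not reported here and are left out of the lists and counts of partner and marker genes. Aliases used were Gatb (Pet112l), Jchain (Igj), Mzb1 (2010001M09Rik), Dtd2 (6530401N04Rik), Adgre1 (Emr1) and Hbb-bs (Beta-s); Trac and Ly6g were not matched. Promoters were matched by symbol, since RefSeq GRCm38.p6 is another build than mm9.

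The enzymes and gene lists were chosen with earlier results of these data known. Library values are given, in each comparison, for the 3 cytosolic and 2 mitochondrial enzymes with the largest called changes, for called enzymes opposite to the majority of their compartment, for the highest and lowest enzymes (Vars, Cars and Lars2 in other comparisons, Nars2 as a mean) and for the 2 amino acid pairs of largest range. The 3 genes of largest called change are taken from each other list. Alternatives were no filter, a filter of 5 FPKM, a pseudocount of 0.1, quantile and median-ratio scaling, the compared groups alone, a replicate block, each library left out, and leaving out Gars and Kars. Leaving out Lars2, or Fraction 7 libraries 2 and 3, was chosen after seeing the data. Tables were made with numpy 2.4.6 and pandas 2.3.3, figures with matplotlib 3.10.9, under Python 3.11.15.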

Additional observations from a re-analysis of the deposited data

How the results depend on the processing

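Of 103 member calls over the 6 comparisons, 36 were lost when at least 1 library was left out and 22 under at least 1 other setting. With each library of the compared groups left out in turn, the counts of called cytosolic enzymes lay between 2 and 9 in Fraction 2 against Fraction 3 (11 with all libraries), 0 and 3 in Fraction 6 against Fraction 5 (2) and 2 and 4 in Fraction 7 against Fraction 6 (4). Those of mitochondrial enzymes lay between 1 and 4 in Fraction 2 against Fraction 3 (4), 1 and 4 in Fraction 5 against Fraction 3 (4), 5 and 9 in Fraction 5 against Fraction 2 (10), 0 and 1 in Fraction 6 against Fraction 5 (1) and 2 and 5 in Fraction 7 against Fraction 6 (4). Where a group was left with 1 library, that library was assumed to vary like the others. Cytosolic counts in Fraction 5 against Fraction 3 (16 to 18) and against Fraction 2 (18) and in Fraction 7 against LZ (18 to 19) stayed near those of all libraries.

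With the compared groups fitted alone, 2 mitochondrial enzymes were called in Fraction 5 against Fraction 3, 1 cytosolic in Fraction 6 against Fraction 5, and 2 cytosolic and 1 mitochondrial in Fraction 7 against Fraction 6. With no filter, 6 mitochondrial enzymes were called in Fraction 5 against Fraction 2 and 1 cytosolic in Fraction 6 against Fraction 5. The mitochondrial count in Fraction 6 against Fraction 5 was 2 under quantile and median-ratio scaling and 0 under a pseudocount of 0.1, no filter, a filter of 5 FPKM, the replicate block and the compared groups alone, with 2 enzymes at an unadjusted p under 0.05. Without Fraction 7 libraries 2 and 3, 1 mitochondrial enzyme was called in Fraction 7 against Fraction 6. The cause of these shifts was not tested. Vars turned positive under quantile scaling in Fraction 5 against Fraction 2, at 0.023 (limma adjusted p = 0.798), and in Fraction 7 against LZ at 0.38 (5.9e-05), and under median-ratio scaling at 0.14 (0.0412).

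The ratio of cytosolic to mitochondrial FPKM depends on Lars2: without it the ratio is 6.50 in LZ, 6.54 in Fraction 2, 6.55 in Fraction 3, 5.38 in Fraction 5, 4.96 in Fraction 6 and 4.57 in Fraction 7. Taken from the median over enzymes of FPKM + 1 in place of sums, with Lars2, it is 3.93, 4.08, 3.78, 2.89, 3.13 and 2.76 in that order. The ratio of sums with Lars2 is 1.73 in Fraction 2, and 1.44 when Gars and Kars are left out. Of all called genes, 3464 were higher and 3467 lower in Fraction 7 against LZ under quantile scaling, beside 2718 and 4279 as deposited. In Fraction 5 the split was 1675 and 1664 against Fraction 3, beside 1125 and 2197, and 2713 and 2479 against Fraction 2, beside 1872 and 3056. For the enzymes, median-ratio scaling gave 3 cytosolic higher and 2 lower in Fraction 7 against Fraction 6, beside 2 and 2.

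Whether replicate numbers pair the libraries is not settled. Same-numbered libraries of the compared groups correlated between -0.136 and 0.125 in their deviations from group means. Among libraries of other groups, 8 of 16 libraries correlated best with one of their own number. In a group of 2 libraries the deviations mirror each other, so this check cannot decide the question. With the replicate block, 10 cytosolic and 4 mitochondrial enzymes were called in Fraction 2 against Fraction 3, 19 and 4 in Fraction 5 against Fraction 3, 19 and 9 in Fraction 5 against Fraction 2, 3 and 0 in Fraction 6 against Fraction 5, 4 and 3 in Fraction 7 against Fraction 6, and 18 and 7 in Fraction 7 against LZ.

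Groups of 2 or 3 libraries limit the size of change that can be called, and FPKM without counts give no sampling error.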

Other observations

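Genes of the amino acid response, the programme in which Atf4 raises amino acid supply and charging, were counted in the same comparisons. Of 11 tested, 6 fell and 2 rose in Fraction 5 against Fraction 2, with a median of -0.46, beside 27.1% of all tested genes lower and 16.6% higher. In Fraction 7 against LZ 7 fell and 1 rose, with a median of -0.56, beside 38% lower and 24.1% higher. Psat1, an enzyme of serine synthesis, had 5.88, 9.84 and 5.63 FPKM in Fraction 7, against 61.5, 54.4 and 58.9 FPKM in LZ, a log2 change of -2.90 ± 0.16 (limma adjusted p = 2.44e-09). Asns, which makes asparagine, had 2.57, 1.24 and 1.35 FPKM in Fraction 7, against 12.5, 11.5 and 8.78 FPKM in LZ (-2.15 ± 0.23, limma adjusted p = 2.44e-06). Phgdh, the first enzyme of serine synthesis, had 27.1, 35.8 and 31.7 FPKM in Fraction 5, against 124 and 114 FPKM in Fraction 2 (-1.89 ± 0.12, limma adjusted p = 2.64e-07). For all 3 genes the groups stood far apart. Atf4 itself changed by -0.35 ± 0.09 in Fraction 5 against Fraction 2 (limma adjusted p = 0.00474) and by -0.51 ± 0.08 in Fraction 7 against LZ (5.69e-05). The genes that rose in Fraction 5 against Fraction 2 were Ddit4 (1.32 ± 0.12, limma adjusted p = 1.87e-06) and Sesn2 (0.67 ± 0.21, 0.0213), both known as restraints on mTORC1, the kinase complex that drives growth. Ddit4 had 62.7, 55.6 and 53.5 FPKM in Fraction 7, against 25.6, 22.6 and 24.5 FPKM in LZ (1.21 ± 0.11, limma adjusted p = 2.91e-07). Ddit3, which overlaps Mars, was not called in Fraction 5 against either light zone fraction or in Fraction 7 against LZ. Chac1 passed the test in none of the 6 comparisons, and Trib3 did not pass the filter on low values.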
